A study of Mus musculus with 2 samples.

Results

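Mir200a, Mir200b, Mir200c, Mir141 and Mir429 form the Mir200 family, and Mir183, Mir96 and Mir182 form the Mir183 cluster. These 8 microRNA genes were taken by name from the 2202 microRNA genes counted in mouse hippocampus, and they lie in 3 genomic clusters. The data were 2 microRNA libraries from wild-type female mice of the strain that the labels write as B6NCrl, with no mutant allele and no agent named. Both belong to a single control group, and the labels call them biological replicates 2 and 1 without saying whether they came from separate animals. They share a donor record, and their age is not recorded. The tissue term is layer of hippocampus, with no layer given. Because no second group exists, the comparisons were among the genes, among the clusters and between the libraries.

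MicroRNAs are short RNAs that guide Argonaute proteins to matching sites in messenger RNAs, chiefly through the seed near their 5′ end. Mir200 family microRNAs keep epithelial cells epithelial by repressing the transcription factors Zeb1 and Zeb2, which in turn repress the Mir200 genes, and in the nervous system the family is best known from olfactory tissue. The Mir183 cluster is known from sensory cells such as hair cells and photoreceptors, where seed mutations of Mir96 cause hearing loss in mice and humans. Neither group is a typical marker of hippocampal neurons.

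The mature sequences are shown because the seeds define which microRNAs can share targets. They were taken from RefSeq (GRCm38.p6), which held all 8 genes, for the arm usually regarded as the functional one. Bases 2 to 8, the seed, are in capitals, and all 8 hairpins are on the minus strand.
Mir200b, miR-200b-3p, chromosome 4: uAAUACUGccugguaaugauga
Mir429, miR-429-3p, chromosome 4: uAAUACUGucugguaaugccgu
Mir200c, miR-200c-3p, chromosome 6: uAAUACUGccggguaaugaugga
Mir200a, miR-200a-3p, chromosome 4: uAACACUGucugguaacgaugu
Mir141, miR-141-3p, chromosome 6: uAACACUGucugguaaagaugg
Mir183, miR-183-5p, chromosome 6: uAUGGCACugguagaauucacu
Mir96, miR-96-5p, chromosome 6: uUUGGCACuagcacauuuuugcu
Mir182, miR-182-5p, chromosome 6: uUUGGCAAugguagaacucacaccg

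Mir200b, Mir429 and Mir200c share one seed, and Mir200a and Mir141 share another. The seeds differ by U4C, with the base of miR-200b-3p first and positions counted from its 5′ end. No other mature mouse microRNA in the table had either of these seeds. Each seed is spread over chromosomes 4 and 6. Over 22 aligned bases miR-200b-3p and miR-200c-3p were identical at 20, and so were miR-200a-3p and miR-141-3p, whereas miR-200b-3p and its neighbour miR-200a-3p were identical at 18. In the Mir183 cluster the seeds of miR-182-5p and miR-96-5p differ only by A8C, and those of miR-183-5p and miR-96-5p only by A2U. The seed of miR-96-5p also occurs in miR-1271-5p, whose gene Gm24195 had 0 counts in replicate 2 and 1 count in replicate 1.

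Similar sequences raise the question whether reads could be told apart, since a read with more than 1 possible origin was left uncounted. The longest stretch that any of the 8 hairpins shares with another annotated hairpin was 17 bases, between Mir200a and Mir141. It is in capitals in both hairpins.
Mir200a hairpin: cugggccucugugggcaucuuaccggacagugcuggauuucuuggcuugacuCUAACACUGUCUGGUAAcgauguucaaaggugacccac
Mir141 hairpin: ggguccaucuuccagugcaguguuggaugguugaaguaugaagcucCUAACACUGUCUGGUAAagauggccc
In each, 6 bases of the mature 3p microRNA lie outside the shared part, so a read of the full mature form holds bases that differ. For Mir200b and Mir200c the shared stretch was 14 bases, and over the 8 genes it was 11 to 17. By comparison, 1135 of the 2202 genes shared 18 or more bases. The search covered annotated hairpins alone, and short or mismatched reads could still map to both places.

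All coordinates are mm10 with GENCODE M21. The Mir200b-Mir200a-Mir429 cluster is on chromosome 4, with Mir200b at 156055681 to 156055750, Mir200a at 156054896 to 156054985 and Mir429 at 156053905 to 156053987. It lies in an intron of Ttll10, a tubulin glycylase gene of the same strand, and Mir429 also overlaps an exon of the noncoding gene Gm13648. On chromosome 6, Mir200c at 124718322 to 124718390 and Mir141 at 124717914 to 124717985 are 336 bases apart in an intron of the noncoding gene Gm15884. Mir141 also overlaps an exon of Gm29008, a gene of the same strand. Also on chromosome 6 but far away, Mir183 at 30169668 to 30169737, Mir96 at 30169446 to 30169551 and Mir182 at 30165918 to 30165992 overlap no other annotated gene. Mir96 begins 116 bases after Mir183, and 3453 bases separate it from Mir182.

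**Figure D1:**
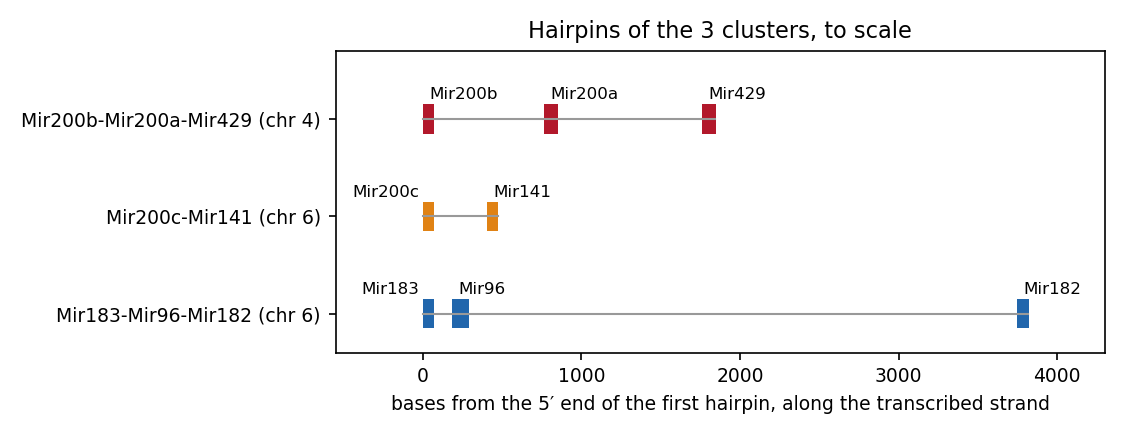
Map of the 3 clusters to scale, with hairpins as boxes and the distance in bases from the 5′ end of the first hairpin on the horizontal axis. Mir200c and Mir141 are the closest pair of the Mir200 family, 336 bases apart, and Mir182 stands 3453 bases from Mir96.

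Replicate 2 held 14300757 reads, with 5901107 counts on the sense strand of microRNA genes, and replicate 1 held 15794475 reads, with 6713867 such counts. Levels are in CPM, which is the count of a gene per 1000000 sense counts of its library. The small RNAs are below 30 nt, so no correction for hairpin length was made. CPM counts reads, not molecules. How efficiently each sequence was captured is not known from these files. A list of 12 hippocampal neuron microRNAs summed to 28540 CPM in replicate 2, against 27560 CPM in replicate 1, led by Mir132, an activity-regulated microRNA. Without Mir128-1, replicate 2 summed to 19760 CPM, against 23830 CPM in replicate 1. Of the 12 hairpins 10 share 18 or more bases with others, so reads that lie wholly in the shared part map to several places and would not be counted, and Mir9-2 and the Mir124a genes had at most 8 counts. Mir1a-1, Mir1a-2, Mir133a-1 and Mir133a-2 of muscle had 0 counts in both libraries, and their hairpins share such stretches too. The 8 genes together made up 0.0775% of the replicate 2 counts and 0.0426% of the replicate 1 counts. In bulk tissue, fewer cells of a type and less RNA per cell cannot be told apart.

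The chromosome 4 cluster was the most abundant of the 3 in both libraries. It summed to 570 CPM in replicate 2 (exact 95% interval 551 to 590.0) and 252 CPM in replicate 1 (241 to 265), a mean of 411 ± 225 CPM (SD, n = 2). The Mir183 cluster had 142 CPM in replicate 2 (132 to 152) and 95.5 CPM in replicate 1 (88.2 to 103), a mean of 119 ± 32.8 CPM. The Mir200c-Mir141 cluster had 62.7 CPM in replicate 2 (56.5 to 69.4) and 78.3 CPM in replicate 1 (71.8 to 85.3), a mean of 70.5 ± 11.1 CPM. The order of the clusters was the same in both libraries, and in neither did the counting intervals overlap. The gaps were unequal, since the chromosome 4 cluster exceeded the Mir200c-Mir141 cluster 9.10-fold in replicate 2 and 3.22-fold in replicate 1, and the Mir183 cluster 4.02-fold and 2.64-fold. Intervals cover the counting error of each library only, not other variation between libraries. The reads carry no molecular identifiers, so repeated reads of one molecule could not be removed.

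Single genes differed in level within every cluster. Mir200b, the first hairpin of its cluster, had 2064 counts in replicate 2 and 620 in replicate 1, or 350 CPM (exact 95% interval 335 to 365) and 92.4 CPM (85.2 to 99.9). Mir429, the last hairpin, had 1152 and 991 counts, or 195 and 148 CPM. Mir200a, between them, had 150 and 84 counts, or 25.4 and 12.5 CPM. Replicate 2 was the higher library for each of the 3, and the highest gene of this locus exceeded the lowest 13.8-fold in replicate 2 and 11.8-fold in replicate 1.

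The other clusters also had one leading gene each. Mir200c had 330 counts in replicate 2 and 510 in replicate 1, or 55.9 CPM (50.1 to 62.3) and 76.0 CPM (69.5 to 82.9). Mir141, its partner, had 40 and 16 counts, or 6.78 and 2.38 CPM. So Mir200c was lower and Mir141 higher in replicate 2, though they are neighbours. Mir183 had 646 and 480 counts, or 109 and 71.5 CPM, and Mir182 had 186 and 157 counts, or 31.5 and 23.4 CPM. Mir96 had 5 counts in replicate 2 and 4 in replicate 1, or 0.847 CPM (0.275 to 1.98) and 0.596 CPM (0.162 to 1.53). Mir96, the gene of the deafness mutations, was thus close to the limit of detection, since a count of 0 would allow up to 0.508 CPM in replicate 2 and 0.447 CPM in replicate 1.

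**Figure D2:**
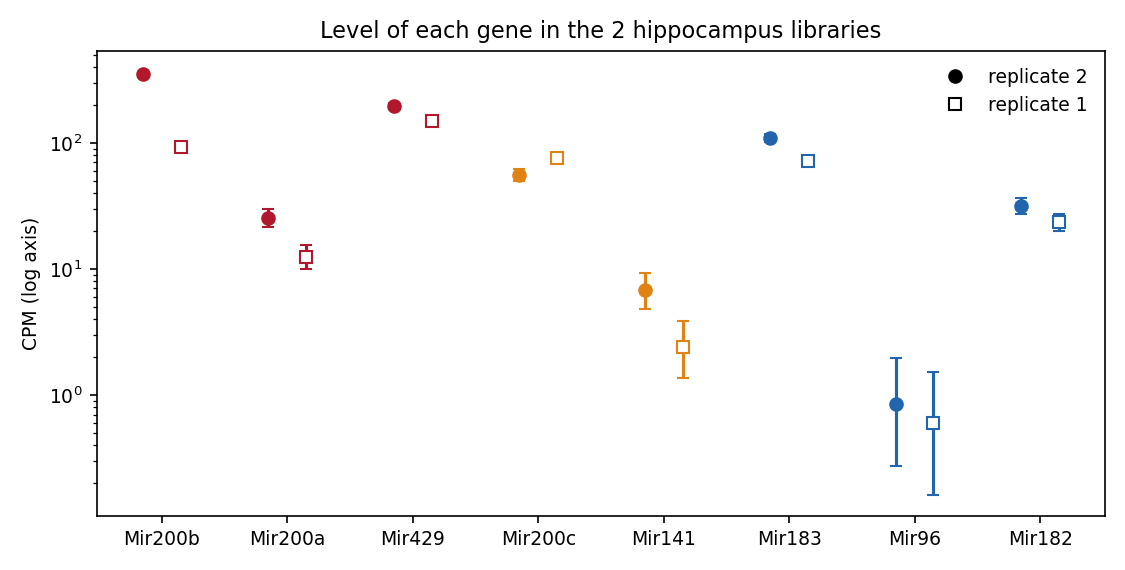
CPM of the 8 genes on a log axis, with filled circles for replicate 2, open squares for replicate 1, exact 95% counting intervals as bars and one colour per cluster. Mir200c is the one gene that is lower in replicate 2, and Mir96 sits under 1 CPM in both libraries.

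By mean level over both libraries the order was Mir200b (221 ± 182 CPM, SD, n = 2), Mir429 (171 ± 33.7), Mir183 (90.5 ± 26.9), Mir200c (65.9 ± 14.2), Mir182 (27.5 ± 5.75), Mir200a (19.0 ± 9.13), Mir141 (4.58 ± 3.11) and Mir96 (0.721 ± 0.178). Mir200b and Mir429, Mir183 and Mir200c, and Mir182 and Mir200a are neighbours in this order whose means differ by less than the larger of their SDs. In replicate 1 the first 2 of these pairs stood the other way round, with Mir429 above Mir200b and Mir200c above Mir183. Among all 2202 genes Mir200b ranked 156 by mean level, at rank 121 in replicate 2 and 196 in replicate 1. Mir429 ranked 171, Mir183 195, Mir200c 209, Mir182 250, Mir200a 277, Mir141 367 and Mir96 556. The 466 genes tested below, those averaging at least 10 counts, had a median of 37.7 CPM, and Mir200b, Mir429, Mir183 and Mir200c lay above it.

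Each cluster divided its counts among its genes differently, and these shares do not depend on how the libraries are scaled. Within the chromosome 4 cluster Mir200b took 61.3% of the counts of replicate 2 (exact 95% interval 59.6 to 63.0) and 36.6% in replicate 1 (34.3 to 38.9), while Mir429 took 34.2% and 58.5%. The leading gene of that cluster therefore changed between the libraries. Mir200a held 4.46% (3.78 to 5.21) and 4.96% (3.97 to 6.10), with overlapping intervals. Within its cluster Mir141 made up 10.8% (7.84 to 14.4) in replicate 2 and 3.04% (1.75 to 4.89) in replicate 1, the rest being Mir200c. Mir183 took 77.2% (74.2 to 80.0) and 74.9% (71.3 to 78.2) of its cluster, Mir182 22.2% and 24.5%, and Mir96 0.597% and 0.624%, so the makeup of the Mir183 cluster differed by less than its counting error.

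**Figure D3:**
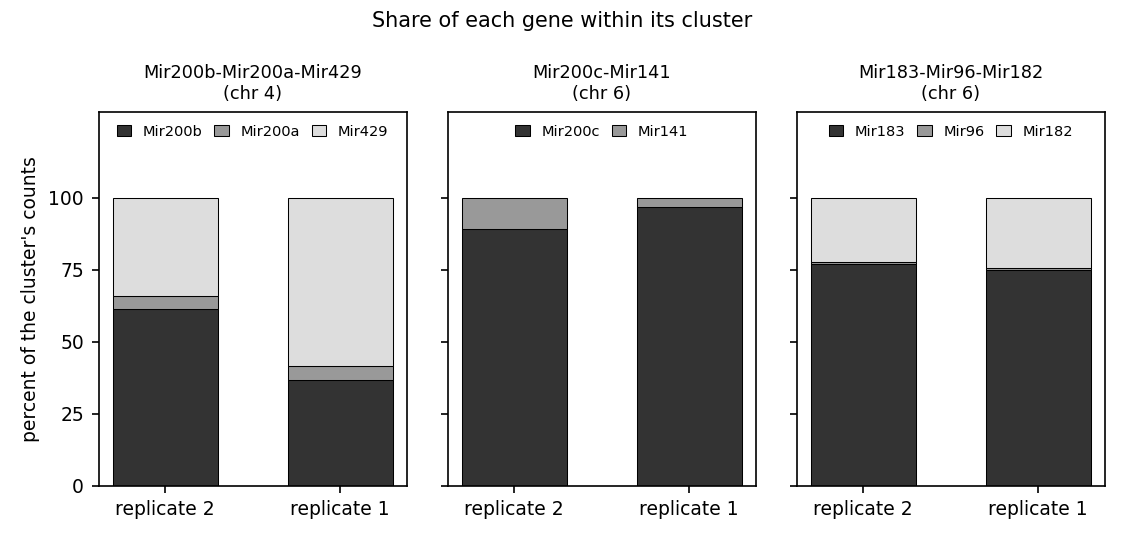
Percent of each cluster's counts held by each of its genes, with replicate 2 on the left and replicate 1 on the right of each panel. Mir200b holds 61.3% of its cluster in replicate 2 and 36.6% in replicate 1, whereas Mir183 holds 77.2% and 74.9% of its own.

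Counts were per hairpin gene and did not separate its arms, so all counts of a gene were given to the seed shown above. The level of each seed itself was not measured. Grouped in this way instead of by locus, the Mir200 family was dominated by the genes with the seed of Mir200b, Mir429 and Mir200c. This group had 601 CPM in replicate 2, against 316 CPM in replicate 1, and the group of Mir200a and Mir141 had 32.2 and 14.9 CPM. The first group held 94.9% of the family's counts in replicate 2 (94.2 to 95.6) and 95.5% in replicate 1 (94.5 to 96.3). The ratio of replicate 2 over replicate 1 was 1.14 times as large for the Mir200a and Mir141 group as for the other (exact 95% interval 0.882 to 1.47), an interval that includes 1. The makeup of the leading group did differ between the libraries. Mir200b gave 58.2% of its counts in replicate 2 and 29.2% in replicate 1, Mir429 32.5% and 46.7%, and Mir200c 9.31% and 24.0%. By locus, chromosome 4 supplied 90.1% of the family's counts in replicate 2 (89.1 to 91.0) and 76.3% in replicate 1 (74.5 to 78.1).

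The libraries were then set against each other, gene by gene. Each ratio is the log2 of replicate 2 over replicate 1, with 0.5 counts added to both and the trimmed mean of M values (TMM) as scaling, and its standard error reflects counting alone. Shares of the total counts were tested per gene by a 2-sided Fisher exact test, and p-values were adjusted by Benjamini-Hochberg over 466 genes that averaged at least 10 counts. The exact test took the totals without TMM, so its p-values are not tests of the TMM ratios printed beside them. The test compares these libraries, not conditions, and no further library checks its calls. Of the 8 genes, 7 reached that mean, Mir96 being the exception, and all 7 passed the test. Among all 466 genes tested 57.5% passed, so passing by itself sets these genes little apart. A gene was called higher or lower where the sign was the same under TMM, totals and DESeq2 size factors. In replicate 2, 6 of the 7 were higher, against 18% of all genes tested, and 1 was lower, against 35.6%. The shares over all genes depend on the totals used. With TMM effective totals in the exact test, 103 of the 466 genes were higher and 137 lower. The main test gave 84 and 166, and the calls of the 7 were the same under both. The median log2 ratio of the 7 was 0.78 under TMM and 0.61 under totals, and that of all tested genes was -0.02 and -0.18. The 7 genes stem from only 3 loci and are not independent, and no test was made of the group.

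Mir200b, whose microRNA targets Zeb1 and Zeb2, had the ratio farthest from 0 of the 8, at 2.08 (SE 0.07, adjusted p = 4.45e-222 by the Fisher exact test), which is 4.23-fold. It ranked 3 among the 466 ratios, from the highest down, and 11 genes had a ratio farther from 0 in either direction. Mir200a was higher at 1.18 (SE 0.20, adjusted p = 3.30e-07), and Mir429 at 0.56 (SE 0.06, adjusted p = 3.15e-10). All 3 genes of the chromosome 4 cluster were therefore higher in replicate 2, by 1.48-fold to 4.23-fold.

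In the Mir200c-Mir141 cluster the partners were called in opposite directions. Mir141 was higher at a log2 ratio of 1.64 (SE 0.42, adjusted p = 0.000525 by the Fisher exact test), on 40 and 16 counts. Mir200c was lower at -0.28 (SE 0.10, adjusted p = 3.05e-05), which is 1.21-fold. Mir183 was higher at 0.78 (SE 0.09, adjusted p = 3.94e-12) and Mir182 at 0.59 (SE 0.16, adjusted p = 0.0129). With TMM effective totals in the Fisher exact test, the adjusted p was larger for Mir200c, at 0.0120. For the genes called higher it was smaller, as for Mir182 at 0.000397. Mir96 was not tested.

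**Figure D4:**
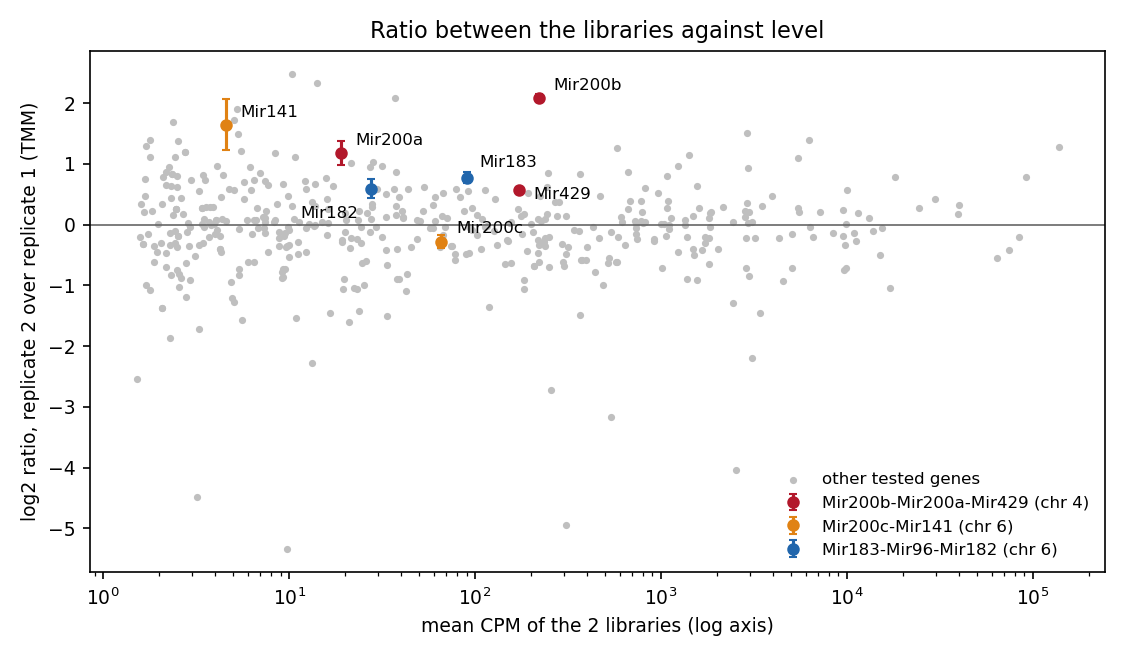
Log2 ratio of replicate 2 over replicate 1 (TMM) against mean CPM on a log axis for the tested genes, with the 7 tested genes of the clusters in colour and their counting standard errors as bars. Mir200b stands at 2.08 near 221 CPM, where few other genes depart so far upward, and Mir200c is the coloured point below 0.

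As sums, the clusters had unequal ratios. The chromosome 4 cluster stood at 1.34 (SE 0.04), the Mir183 cluster at 0.73 (SE 0.08) and the Mir200c-Mir141 cluster at -0.16 (SE 0.10, counting interval -0.35 to 0.03, which includes 0). Under totals the last was -0.32, against a median of -0.18 over all tested genes. Set against each other, which removes the scaling, the ratio of the chromosome 4 cluster was 2.82 times that of the Mir200c-Mir141 cluster (exact 95% interval 2.44 to 3.27) and 1.52 times that of the Mir183 cluster (1.35 to 1.72). The ratio of the Mir200c-Mir141 cluster was 0.539 times that of the Mir183 cluster (0.454 to 0.640). None of these intervals includes 1, so the 3 clusters differed from each other in these libraries by more than counting error.

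Neighbours within a Mir200 cluster differed as well. The ratio of Mir200b was 2.86 times that of Mir429 (exact 95% interval 2.53 to 3.25) and 1.86 times that of Mir200a (1.39 to 2.49), and the ratio of Mir200a was 1.54 times that of Mir429 (1.15 to 2.06). The ratio of Mir141 was 3.86 times that of Mir200c (2.07 to 7.51). For Mir183 over Mir182 it was 1.14 (0.884 to 1.46), an interval that includes 1. Genes with like sequence at different loci did not share a ratio throughout. Mir200b stood 5.14 times above Mir200c (4.35 to 6.09), their mature sequences being identical at 20 of 22 bases, while for Mir200a over Mir141 the value was 0.715 (0.352 to 1.40), an interval that includes 1.

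The spread inside the Mir200 clusters was set beside that of other genomic clusters, defined as tested genes on one strand with starts within 10 kb. The range of log2 ratios, highest minus lowest gene, was 1.92 for Mir200c and Mir141, 1.52 for the chromosome 4 cluster and 0.18 for Mir183 and Mir182. Among 40 other clusters the median range was 0.78, with quartiles of 0.38 and 1.12. A larger range was seen in 3 of the 40 than for Mir200c and Mir141, in 7 than for the chromosome 4 cluster, and in 37 than for Mir183 and Mir182. Ranges grow with the number of genes and with low counts, such as the 40 and 16 counts of Mir141. Mir96, which was not tested, entered no range. Among the 33 other clusters of 2 or 3 tested genes the median was 0.66, and 3, 4 and 30 had larger ranges.

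**Figure D5:**
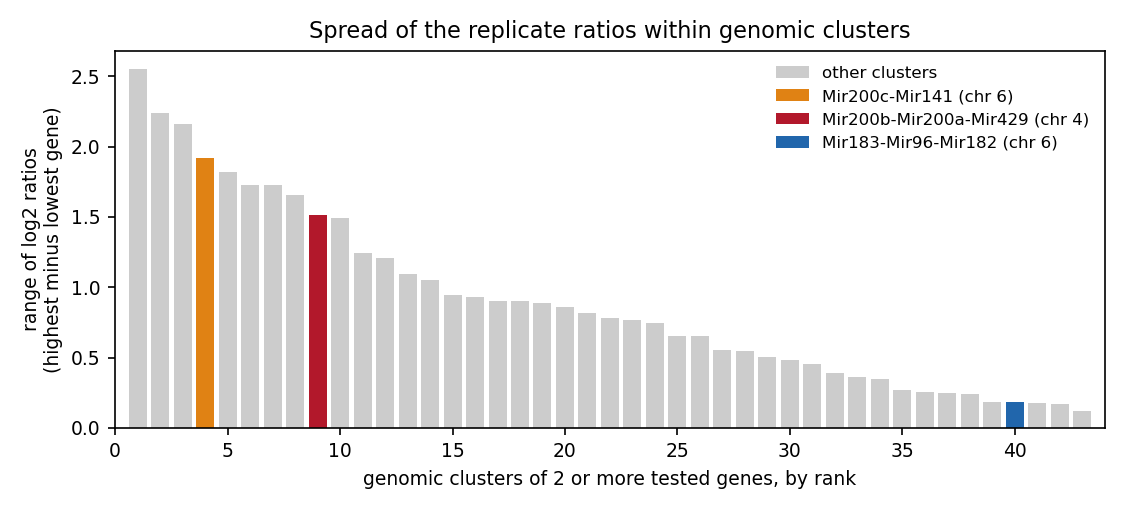
Range of log2 ratios within each genomic cluster of 2 or more tested genes, ordered from largest to smallest, with the 3 clusters in colour. Mir200c with Mir141 and the chromosome 4 cluster are among the wider ones, at 1.92 and 1.52, and Mir183 with Mir182 is among the narrowest, at 0.18.

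MicroRNAs of other epithelia were listed beside the Mir200 genes, of which Mir200c was lower in replicate 2 and the other 4 were higher. Of 8 such genes, 6 were tested, of which 5 were lower in replicate 2, against 35.6% of all genes tested, 0 were higher, against 18%, and Mir194-2 did not pass. Their median log2 ratio was -0.60, and all 8 added up to 434 CPM in replicate 2, against 1539 CPM in replicate 1. Mir31 carried most of that gap, with 97.6 CPM in replicate 2, against 983.8 CPM in replicate 1. Leaving it out gave sums of 336.5 CPM in replicate 2, against 555 CPM in replicate 1. Mir31, of keratinocytes and other epithelia, was lower at -3.17 (SE 0.06), Mir375, of endocrine and secretory cells, at -0.58 (SE 0.04), and Mir203, of skin, at -0.39 (SE 0.18). Mir205, of basal epithelium, had 36 counts in replicate 2 and 84 in replicate 1.

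Markers of tissues that border the hippocampus or could enter a dissection gave the following values, to be read against the 18% of all genes tested that were higher and the 35.6% that were lower. Of 7 listed choroid plexus and ependyma genes, 5 were tested, of which 3 were lower in replicate 2 and 1 higher, with a sum of 1747 CPM in replicate 2 and 2056 CPM in replicate 1. Without Mir204, which led it, replicate 2 summed to 94.1 CPM, against 523.5 CPM in replicate 1. Without Mir34c, replicate 2 had the higher sum, 1686 CPM, against 1605 CPM in replicate 1. Mir204, of choroid plexus, was higher, with a log2 ratio of 0.27 (SE 0.02). Mir34c, found in cells with many cilia, was lower at -2.72 (SE 0.08). Mir449b and Mir449c had 0 counts in both libraries. All 4 endocrine and pituitary genes, Mir7-1, Mir7-2, Mir7b and Mir375, were lower, with 1364 CPM in replicate 2, against 2682 CPM in replicate 1. Without Mir7b, which led this list, replicate 2 summed to 471.3 CPM, against 816.4 CPM in replicate 1. Mir7-1 and Mir7-2 share 18 or more bases with other hairpins. Mir375 is counted in the epithelial list as well. Of 12 neuron genes 8 were tested, with 4 higher, 3 lower and 1 whose sign depended on the scaling, and a median of 0.32. Mir122 of liver and Mir206 of muscle were lower, at -0.23 and -0.59. The part of these cell types in the counts of the Mir200 family and the Mir183 cluster was not tested.

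Few genes had levels like that of Mir200b in both libraries. By distance in log2(CPM + 1) over the 2 libraries, its nearest tested genes were Mir1306 in an exon of Dgcr8, Mir429, and Mir218-2 in an intron of Slit3, at distances of 1.04, 1.07 and 1.10. Mir1306 had 304 CPM in replicate 2 and 188 CPM in replicate 1. Mir200c had close matches in Mir20a, Mir467e and Mir412, at 0.023, 0.081 and 0.085, all lower in replicate 2. Mir20a had 55.1 and 76.4 CPM, next to 55.9 and 76.0 CPM for Mir200c. For Mir183 the nearest were Mir7044, Mir193b and Mir184, at 0.163, 0.262 and 0.287, all higher in replicate 2. Nearness was measured on these same 2 libraries, so the shared directions around Mir200c and Mir183 follow from how the neighbours were picked. With 2 libraries this likeness describes levels only.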

How the data were processed

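RNA libraries of control hippocampus, 2 in all, were used, grouped and numbered by the labels. The authors deposited raw read counts per microRNA gene in 3 columns (without strand, sense, antisense), on mm10 with GENCODE M21 per the notes deposited with each library. Adapter trimming followed documents that differ between the libraries, per the labels' protocols, so trimming and biosample cannot be told apart. Which aligner and counter were used is not given in the sources used here. Reads that mapped to several places (45.9% of reads in replicate 2 and 43.9% in replicate 1) and the other read classes entered no total.

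All 2202 identifiers matched GENCODE M21. The sense column was used, 41.3% and 42.5% of reads. Scaling used edgeR 4.0.16 (TMM) and DESeq2 1.42.0 (size factors) over all genes, and exact tests and intervals used scipy 1.17.1, with a threshold of 0.05. With 2 libraries in 1 group, tests compare libraries and cover counting error only. The test was checked on Poisson counts drawn at known ratios. These held counting error only, so the check does not cover other variation between libraries. The 8 genes and all lists were chosen with earlier results of these data known. Named genes were the 8, the 3 nearest to the leading gene of each cluster, and list members. Others, such as Gm24195, were named after their values were seen. Alternatives covered strand, filter, scaling, counts added, denominators and cluster distance.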

Additional observations from a re-analysis of the deposited data

Results flagged for a closer look

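Mir200a had 4 antisense counts in replicate 1, more than the 3 that a count of 0 allows, and 0 in replicate 2. They made up 4.55% of the 88 counts without strand (exact 95% interval 1.25 to 11.2). In replicate 2, 0 of 150 allows up to 2.00%, a bound that takes 3 counts over the 150 and is not an exact interval. The 2 ranges overlap, so these few counts do not set the libraries apart. Over the 2138 genes with no microRNA gene on the opposite strand, the antisense share was 0.00293% for replicate 2 and 0.00303% for replicate 1, and 9 genes had 4 or more in each library. The other 7 genes had no antisense counts in either library. The cause was not tested.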

How the results depend on the processing

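The log2 ratios of the 7 tested genes kept their sign under every alternative that kept the gene. These were other totals, DESeq2 size factors, 1 count added, counts without strand, no filter and effective totals in the exact test. Others were a minimum mean of 50 counts (which leaves out Mir141) and no genes sharing 18 or more bases. Other totals, DESeq2 size factors and 1 count added reused the main test, so they could not move a gene across the threshold. The filters and the omission of sharing genes kept the counts and totals, so only the adjustment of p-values could change. The exact test was rerun on counts without strand and with effective totals, which left the ratio as it was. In all these reruns and adjustments the genes kept their side of the threshold. Mir200b ranged from 1.92 to 2.09 and Mir200c from -0.44 to -0.27. The number of genes passing was 201 to 268, out of different numbers tested. It was 264 of 787 (33.55%) with no filter and 252 of 328 (76.83%) at a minimum mean of 50 counts. Without genes sharing 18 or more bases it was 201 of 371 (54.18%), and in the main setting 268 of 466 (57.51%). Under totals the ratio of the chromosome 4 cluster was 1.18 and that of the Mir183 cluster 0.57, which follows from the scaling factor. Per 1000000 of all reads, the levels were 171 for the chromosome 4 cluster, 29.6 for the Mir200c-Mir141 cluster and 49.6 for the Mir183 cluster, since the denominator then holds every read class. The median range within other clusters was 0.71 with starts within 2 kb, 0.65 within 50 kb and 0.70 at a minimum mean of 50 counts. At 2 kb Mir183 and Mir182 no longer formed a cluster. At a minimum mean of 50 counts Mir200c and Mir141 gave no range. Leaving out a library leaves the values of the other one, as given above. No paired analysis was possible because the study has a single group. Depth limits Mir96 (5 and 4 counts) and Mir141 (40 and 16 counts) most.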
